A study of Mus musculus with 12 samples.

Results

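The sites described here are 594 of the 2605 places where tagged GLI1 was recovered in mouse cardiac progenitors and where the deposited list also records a GLI motif. They were chosen by 2 criteria. No other listed site starts within 10000 bp, and the deposited window of about 100 bp shares no base with an H3K27ac interval from control or doxycycline-treated cells. They make up 22.8% of all sites (Wilson 95% interval 21.2 to 24.5%) and 29.7% of the 2002 solitary sites (27.7 to 31.7%). Over all GLI1 sites, solitary or not, 24.5% share no base with an interval of either list. The other solitary sites are 973 that overlap an interval in doxycycline-treated cells alone and 435 that overlap an interval in control cells. A further 603 sites are clustered, and 43 of those also lie outside every interval.

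The cells were cardiac progenitors differentiated from a single mouse embryonic stem cell line, GLI1-FTA, made in the A2Lox.cre background, and they were harvested on day 6. Control cells were untreated. Doxycycline-treated cells received 500 ng/ml for 24 hours up to harvest, which overexpresses GLI1 from the introduced transgene, so the sites are those of a supplied factor and not of the cells' own GLI1. Streptavidin beads pulled down the tagged protein, and an antibody the acetylated histone. The series holds 12 libraries in 6 groups of 2. The 3 lists used here rest on 6 of those libraries, each list stands for both libraries of a group, and the inputs and the untreated GLI1 pulldown were not analysed here. With 1 list per condition there is no spread between samples, so every comparison is a description with no test. The intervals on shares and medians cover counting over sites alone. Those on pileups cover the counting of fragments at 1 summit, taken as independent. Neither covers variation between libraries.

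GLI1 is the zinc finger transcription factor that activates target genes at the end of the Hedgehog pathway, and it binds a short motif whose consensus is GACCACCCA. Hedgehog signalling acts on the second heart field, the progenitor pool that builds the outflow tract and the atrial septum. H3K27ac is an acetylated histone mark of active promoters and enhancers. Because it sits on nucleosomes, its signal often dips where a transcription factor occupies the DNA between them, with a shoulder on each side. A site outside a called interval can therefore lie in such a dip or in chromatin with no acetylation nearby.

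The sequence of a site could be shown for 2 of the 594, those lying wholly inside a promoter window of the RefSeq table (GRCm38.p6, the assembly behind mm10). One is flanked by H3K27ac intervals on both sides and the other has none within 1000 bp, and capitals mark the stretches closest to GACCACCCA on either strand.
Dleu7: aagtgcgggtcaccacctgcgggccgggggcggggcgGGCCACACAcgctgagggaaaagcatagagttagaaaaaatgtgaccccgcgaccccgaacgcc
Gm52482: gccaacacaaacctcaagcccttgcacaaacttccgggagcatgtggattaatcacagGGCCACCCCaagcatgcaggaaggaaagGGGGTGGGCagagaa
The Dleu7 site is chr14:62293008-62293108, minus strand, centred 79 bp before the gene's start, with a GLI1 score of 40.7 and the nearest H3K27ac interval 9091 bp away. The site before Gm52482, a long non-coding RNA gene, is chr4:140787607-140787707, plus strand, centred 104 bp before the start. Its score was 20.7, and dox intervals lay 7 bp to its left and 1 bp to its right. Neither holds the consensus exactly. The capitals match it at 7 of 9 letters, once in the first and at 2 places in the second. Of 32851 RefSeq promoter windows of 300 bp, 0.253% hold the exact 9 letters on either strand, and 25.8% of stretches of a site's length taken from them match at 7 or more letters. The stretch the authors scored as the motif is not given in the list, so the capitals describe the letters only.

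Most of the 594 sites were not in chromatin without H3K27ac. In the list from doxycycline-treated cells, 400 (67.3%, 63.5 to 71.0%) lay within 1000 bp of an interval, against 4.11% of all bases outside that list's intervals. In the control list 31 did (5.22%, 3.70 to 7.31%), against 3.58% of bases. Over either list the count was 403 (67.8%, 64.0 to 71.5%; bases, 4.99%) and the median gap was 129 bp (111 to 158). The same sites had a median gap of 20137 bp (16672 to 24906) to the control list. The name "sites without H3K27ac" therefore holds for the windows themselves but not for the surroundings of about 2 in 3 of them, and they are called here by the rule that chose them.

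The distances were uneven, with most sites very near an interval and a smaller number far off. Up to 100 bp from an interval of either list lay 255 sites, and up to 500 bp 390, while 13 lay beyond 500 and up to 1000 bp. Beyond 1000 and up to 10000 bp there were 71 (11.95%). Beyond 10000 bp there were 120 (20.2%, 17.2 to 23.6%), against 70.8% of bases outside the intervals of either list. Beyond 10000 bp of a dox interval there were 136 sites (bases, 74.9%), and beyond 10000 bp of a control interval 389 (bases, 77.2%). The rule itself has a sharp edge here: 39 of the sites lie within 10 bp of an interval, 7 of them with no base between, and 34 solitary sites were left out because they share 10 bp or less with one. On the other criterion, the nearest neighbouring site to any of the 594 starts 10096 bp away, and the largest such distance among clustered sites outside the intervals was 9816 bp.

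**Figure D1:**
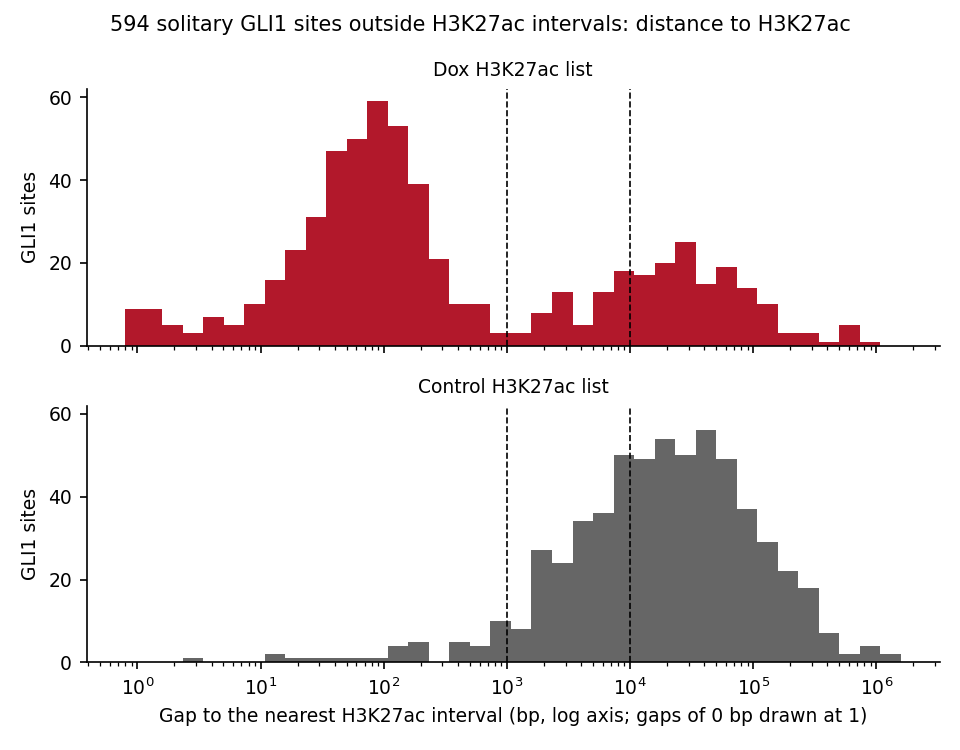
Histogram of the gap from each of the 594 sites to the nearest H3K27ac interval (bp, log axis; dashed lines at 1000 and 10000 bp) for the dox list above and the control list below. In the dox list 400 sites lie left of the first line, in the control list 31.

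By surroundings, 246 of the 594 (41.4%, 37.5 to 45.4%) had a dox interval within 1000 bp on both sides and 154 (25.9%, 22.6 to 29.6%) on one side only. In 3 cases only a control interval was that near. In the control list 8 sites had an interval on both sides, and all 8 were flanked on both sides in the dox list too. Flanking on both sides was thus seen at 246 sites in the dox list and at 8 in the control list. The sites themselves come from the dox pulldown, and the dox list held more intervals, 76437 against 67463. The share of bases flanked on both sides was not computed for either list.

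The 246 flanked sites sat in short gaps. The gap between both dox intervals had a median of 301.5 bp (265 to 336), ranged from 109 to 1058 bp, and was at most 500 bp at 210 sites (85.4%). The site centre lay a median of 38 bp (28.5 to 45) from the middle of its gap. Among all gaps of the dox list, a site of this set was in 54 of 8124 gaps of over 100 and up to 200 bp (0.665%) and in 69 of 5601 gaps of up to 300 bp (1.23%). The share was 1.74% (87 of 5002) for gaps of over 300 and up to 500 bp and 0.702% (34 of 4843) for longer ones up to 1000 bp. Most such gaps therefore held no listed GLI1 site.

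Fold enrichment, the authors' ratio of the pileup at an interval's summit to its background, was moderate beside these sites. The stronger of the 2 dox flanks had a median of 5.62 (5.30 to 6.00), with a highest value of 33.4, and the weaker had 3.89 (3.67 to 4.32). The stronger flank exceeded the weaker by a median ratio of 1.34, and by at most 2 at 220 of 246 sites (89.4%). This ratio was not computed for other pairs of dox intervals, so likeness in height is not shown to be particular to these sites. The quartiles of all dox intervals were 3.24 and 6.89. Dox intervals that hold a solitary site in dox alone reached 9.94 (9.22 to 10.6), and all dox intervals had a median of 4.11. In recovered pileup, the number of fragments stacked at the summit, the stronger flank had a median of 27 and all dox intervals 20. The stronger flank is the higher of a pair, so its excess over single intervals is in part fixed by that choice. In fold enrichment the weaker flank's median of 3.89 was below the 4.11 of all dox intervals.

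**Figure D2:**
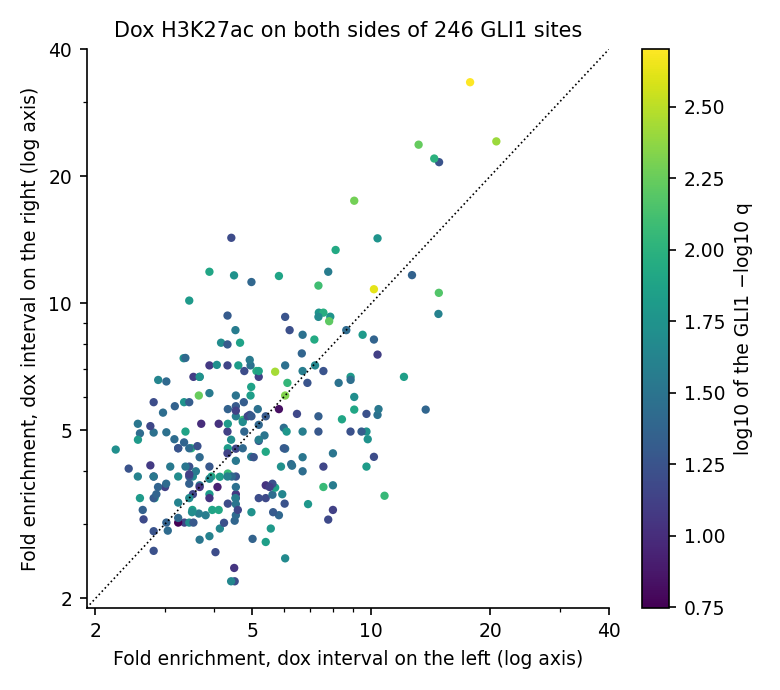
Fold enrichment of the dox interval to the left and to the right (both log axes) of each of the 246 sites flanked on both sides, with colour giving the GLI1 score on a log scale. Points lie near the dotted line of equal height, and the highest, at 17.8 and 33.4, is the site in Ntm.

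Summits are the positions of highest signal within intervals. Since no interval touches these windows, the rule keeps summits away from the site centre, and their distances are a description only. At the 246 flanked sites the nearest dox summit was a median of 314.5 bp (307 to 328) from the site centre, and no dox summit lay within 100 bp of it. At the 973 solitary sites inside a dox interval the median was 273 bp (266 to 281), and 70 of their 3880 dox summits within 1500 bp lay within 100 bp of the centre. Of those 973 sites, 851 (87.5%) were in an interval with at least 2 summits, and for 218 (22.4%) the window crossed the interval's edge. In summits per 100 sites, both sets had their highest 50 bp bin at 300 to 350 bp to the right of centre. It stood at 21.5 for the flanked sites and 19.1 for the sites inside intervals. To the left, the highest bin was -400 to -350 bp for the flanked sites. For the sites inside intervals it was -350 to -300 bp, and both stood at 16.3. Solitary sites inside and just outside dox intervals thus shared the position of their highest bin on the right but not on the left. By the rule they differ in whether a called interval reaches the site.

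**Figure D3:**
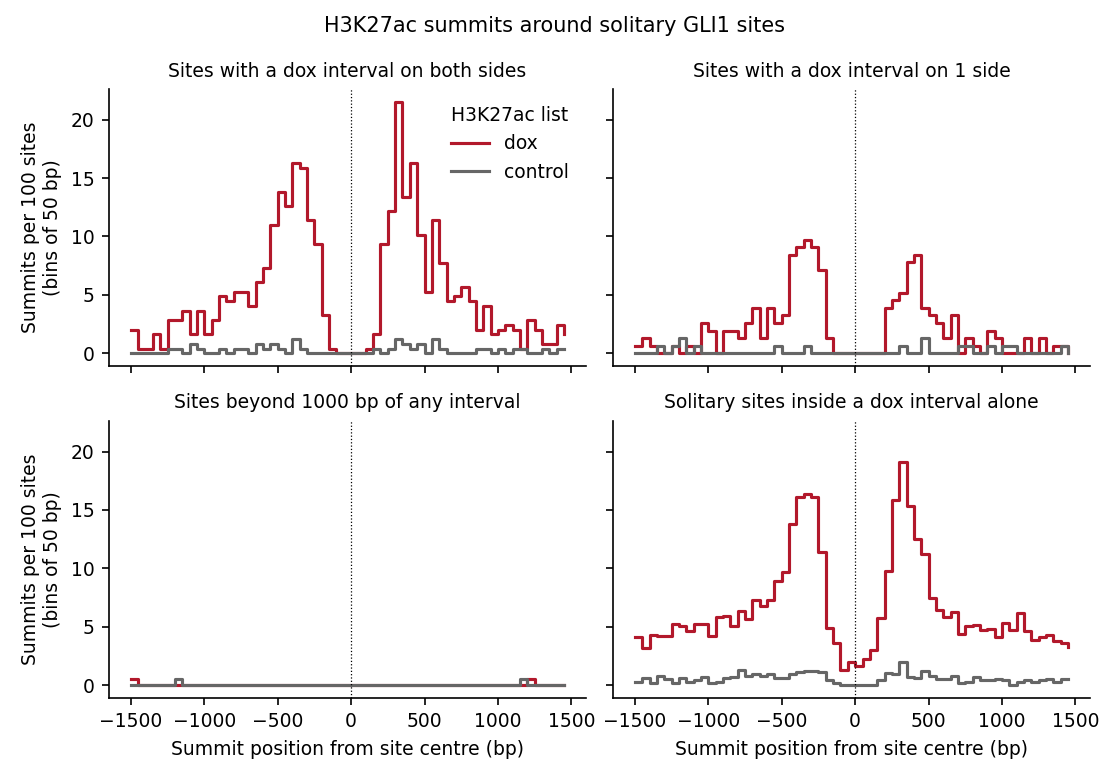
H3K27ac summits per 100 sites in 50 bp bins by position from the site centre (bp), for dox (red) and control (grey), in 4 sets of solitary sites. The empty centre of the 3 sets outside intervals, and the shoulders on both sides in the first, follow from how the sets were chosen; the highest bin is 21.5 in dox and 1.22 in control for the flanked sites.

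The 12 highest-scoring sites outside stretches where intervals may be missing show the pattern one by one, 10 of them with dox intervals on both sides, 1 on one side and 1 on neither. The strongest, with a score of 503, was chr9:29557197-29557297, inside Ntm, which encodes the neuronal adhesion protein neurotrimin. Its dox flanks began 36 bp to the left and 58 bp to the right, with fold enrichments of 17.8 and 33.4 and pileups of 83 (exact Poisson 95% interval 66.1 to 103) and 161 (137 to 188). The nearest control interval was 121825 bp away. Within 50000 bp of this site on either side, no base was in a control interval and 16.6% were in dox intervals. Another listed GLI1 site starts 11923 bp away, inside that window.

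Sox11, a SoxC transcription factor gene of neural and mesenchymal progenitors, was the nearest protein-coding gene to 2 of the 12. The site chr12:27863639-27863739 had a score of 421, lay 520920 bp from the gene, and had dox flanks of 10.2 and 10.8 fold. Its nearest control interval was 75449 bp away. The site chr12:27786942-27787042, 444223 bp from Sox11 with a score of 174, had dox flanks of 13.2 and 23.8 fold. It was the only one of the 12 with a control interval within 1000 bp, and it had one on each side, of 4.44 and 10.97 fold at 171 and 54 bp.

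The dox flanks of the next 3 sites were also above the median of all dox intervals. The site chr14:23896306-23896406 in Kcnma1, which encodes a calcium-activated potassium channel, had a score of 194 and dox flanks of 9.05 and 17.5 fold. Its nearest control interval, of 4.44 fold, was 3316 bp away. The site chr5:26922050-26922150 in Dpp6, an accessory subunit of Kv4 potassium channels, had a score of 165 and dox flanks of 7.82 and 9.07 fold. The site chr3:105272546-105272646, with a score of 149, lay 179243 bp from Kcnd3, which encodes such a channel, and its flanks of 14.8 and 10.6 fold were well above the set's medians. The nearest control intervals were 167101 bp away for the Dpp6 site and 148396 bp for the Kcnd3 site.

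Some other sites of high GLI1 score had flanks nearer the medians of the 246 flanked sites, 5.62 for the stronger flank and 3.89 for the weaker. Most of these flanks were still above those medians. The site chr14:115473115-115473215 in Gpc5, a glypican of the cell surface, scored 273 with flanks of 5.71 and 6.89 fold. The site chr5:74274383-74274483 in Scfd2 scored 214 with 6.05 fold on both sides, and chr6:144535362-144535462 in Sox5, a SoxD transcription factor gene, scored 178 with 3.66 and 6.05. The site in Igsf21, chr4:140030466-140030566, scored 255 and had a dox interval on the left alone, of 4.97 fold at 45 bp, with the next to the right 39988 bp away. The one site of the 12 with no interval within 1000 bp was chr11:34119358-34119458, 27076 bp from Lcp2, which encodes an adaptor of T cell receptor signalling. It scored 131, and its nearest dox interval was 2267 bp away at 4.43 fold. The site chr1:147614569-147614669 near Brinp3, with a score of 126, had flanks of 7.35 and 11.02 fold and its nearest control interval was 552307 bp away. Across the 246 flanked sites, GLI1 score and the stronger flank's fold enrichment had a Spearman rho of 0.26. Over the 973 sites inside dox intervals it was 0.50, both as descriptions across sites that share the same libraries.

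At the 154 sites with a dox interval on one side only, that interval was close in height to the weaker flank of the sites flanked on both sides. The single interval had a median fold enrichment of 3.67 (3.46 to 3.89), against 3.89 (3.67 to 4.32) for the weaker flank. It had a pileup of 17, under the median of all dox intervals, and lay a median of 140 bp (113 to 165) away. The nearest dox summit of these 154 sites was 369.5 bp (354 to 400) from the centre, farther than at the sites flanked on both sides. Sites flanked on both sides have a near interval on each side to take the nearest summit from. Part of this difference is therefore fixed by how the sets were defined.

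The acetylation beside these sites was mostly listed after doxycycline alone. When intervals of both lists were merged into regions, the nearest region within 1000 bp was in the dox list alone at 375 of 403 sites (93.1%, 90.1 to 95.1%), against 35.5% of all regions. Another 25 were shared by both lists and 3 were in the control list alone. At 225 of the 246 flanked sites (91.5%, 87.3 to 94.3%) both flanks were in the dox list alone. The rule had removed the 435 solitary sites that overlap a control interval, and the flanked sites were defined by dox intervals. Part of the excess over 35.5% is therefore fixed by the choice of sites. The 25 shared regions had a median log2 ratio of dox to control fold enrichment of 0.66 (0.26 to 0.83) after centring on all shared regions. It was above 0 in 19 and at least 1 in 4, while 6.78% of all shared regions reached 1. Regions holding a solitary site in dox alone, a set with no control overlap by definition, were in the dox list alone in 82.0% of 985. The median ratio was 1.53 in the 177 shared ones.

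Regions farther off did not show this. For the 71 sites with their nearest region beyond 1000 and up to 10000 bp away, 23 regions were in the dox list alone, 24 were shared and 24 were in the control list alone, and the shared ones had a median log2 ratio of -0.04 (-0.44 to 0.41). The uniform background implied by the pileups was 2.83 fragments for the control list and 3.63 for the dox list. Read totals were not used, so this is not a direct measure of depth. The dox list also held more intervals, 76437 against 67463. The part of these differences in the count of dox-only regions was not tested.

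The split between dips and bare chromatin depends on weak intervals. When only intervals with a −log10 q of at least 10 were used, both to choose the sites and to measure distances, 29.1% of 716 sites lay within 1000 bp of one, 8.38% were flanked on both sides and 53.4% were beyond 10000 bp. The shares of bases were not recomputed for these intervals. For all intervals of either list, 4.99% of bases outside them lay within 1000 bp and 70.8% beyond 10000 bp. Widening the window by 500 bp on each side left 204 sites, of which 58.8% were beyond 10000 bp, but that choice removes every site within 500 bp of an interval of any strength.

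The 120 sites beyond 10000 bp of any interval in either list are called here sites in bare chromatin. The name refers to that distance alone, since intervals can lie farther out. Their nearest dox summit was a median of 38947.5 bp (30221 to 52955) away, and 17 of them were more than 100000 bp from any interval. Within 50000 bp on either side, 61 of the 120 had no base in a control interval and 52 none in a dox interval, and the median share of bases in intervals was 0% in control and 0.43% in dox. Their median GLI1 score was 23.7 (19.8 to 26.7) and their highest was 120, so none was among the 12 strongest. The next GLI1 site was a median of 589536 bp (422550 to 799939) away, against 383348 bp (324305 to 421802) for all 594.

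The 6 farthest sites were 265261 to 528916 bp from any interval, with scores between 18.8 and 41.2, and none lay inside a protein-coding gene. The farthest was chrX:131404274-131404374, with a score of 18.8, 938439 bp from Diaph2, which encodes a formin that assembles actin filaments. The site chr1:122044940-122045040, with a score of 41.2, lay 476959 bp from the RNA helicase gene Ddx18 and 476864 bp from the nearest interval. The site chr3:118510703-118510803, with a score of 30.8, was 51305 bp from Dpyd, the gene of the enzyme that starts pyrimidine breakdown, and 389384 bp from the nearest interval. The other 3 were nearest to Sh2d4b (score 38.4), the olfactory receptor gene Olfr1490 (23.7) and Lratd1 (26.7). All 6 scores were ordinary for the set, whose middle range was 17.0 to 41.8.

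In the dox list, local acetylation was highest around the flanked sites and lowest in bare chromatin. In the control list it was highest at the sites at intermediate distance, with intervals that overlap those of the flanked sites. Within 50000 bp on either side, the median share of bases in intervals went from 1.73% in control to 4.07% in dox at the flanked sites, and from 1.74% to 2.81% at sites with 1 neighbouring dox interval. It was 2.83% and 2.37% at sites more than 1000 and up to 10000 bp from an interval. Over all 594 sites it was 1.45% in control (1.24 to 1.73%) and 2.84% in dox (2.41 to 3.23%). Solitary sites in dox alone had 2.37% and 7.39%, and solitary sites in control intervals 10.4% and 14.2%. The intervals that chose each set lie in these windows, so the order of the sets is in part fixed by the rule.

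**Figure D4:**
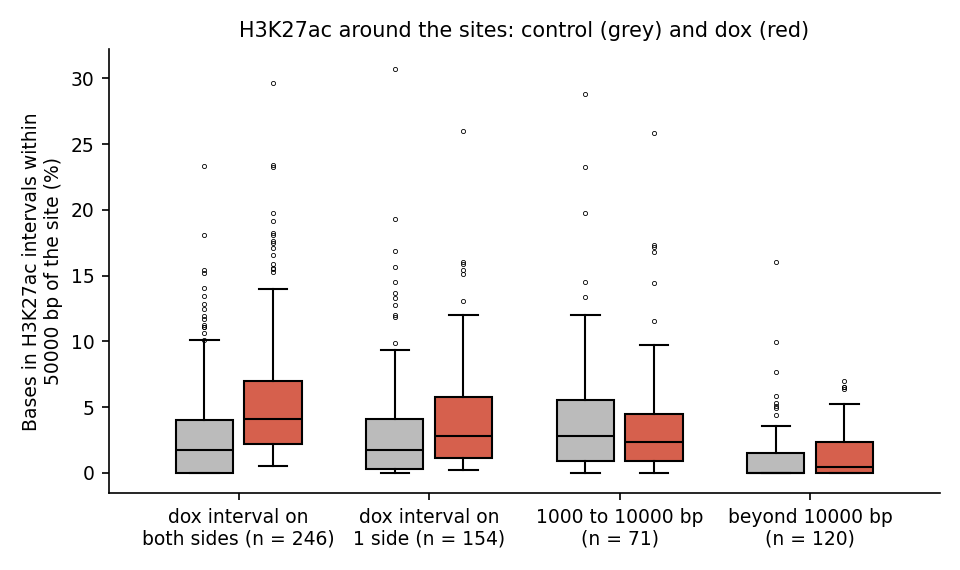
Box plots of the share of bases (%) in H3K27ac intervals within 50000 bp of each site, control in grey and dox in red, by surroundings (box, quartiles and median; whiskers, 1.5 times the box; points, sites beyond). The 3 sites near a control interval alone are not drawn, and the dox medians are 4.07, 2.81, 2.37 and 0.43% from left to right.

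In GLI1 strength, given as the deposited score and taken as −log10 q, the 594 sites stood below the other solitary sites. Their median was 25.03 (23.7 to 26.7), with quartiles at 17.0 and 41.8 and a range of 5.60 to 503. Solitary sites in dox alone had 37.3 (35.0 to 40.3), those in control intervals 29.9 (27.5 to 33.1), and clustered sites 31.2 (28.4 to 34.7). The ranges overlapped nearly throughout. Among the 594, the flanked sites had the highest median, 29.1 (26.6 to 33.0), against 22.8 (20.4 to 25.7) with 1 flanking interval, 22.7 (19.6 to 25.7) at more than 1000 and up to 10000 bp, and 23.7 in bare chromatin.

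Dividing all solitary sites into 4 groups of near equal size by score gave the same order. Sites outside the intervals were 199 of 502 in the weakest group (39.6%, 35.5 to 44.0%), 34.2% in the second, 27.5% in the third, and 86 of 500 in the strongest (17.2%, 14.1 to 20.8%). Within these, the share flanked on both sides in dox was 34.2% (27.9 to 41.0%) in the weakest group and 65.1% (54.6 to 74.3%) in the strongest. The share beyond 10000 bp went from 23.6% (18.3 to 30.0%) to 16.3% (9.95 to 25.5%), with intervals that overlap. A strong solitary site was thus seldom outside an interval, and where it was, intervals usually stood on both sides.

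**Figure D5:**
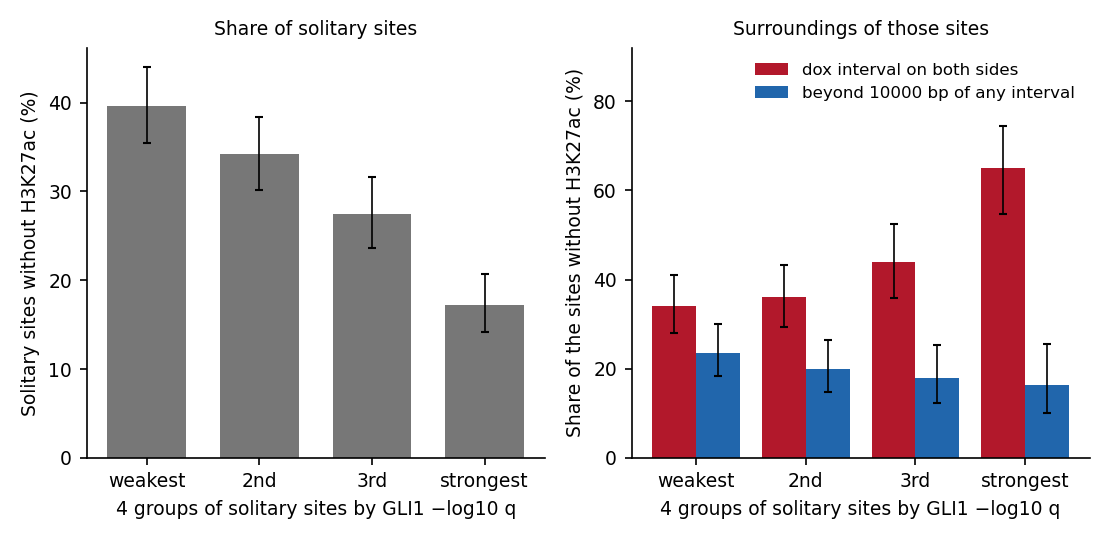
Left, share (%) of solitary sites outside H3K27ac intervals in each of 4 groups by GLI1 score. Right, share (%) of those sites with dox intervals on both sides (red) and beyond 10000 bp of any interval (blue); bars carry Wilson 95% intervals, and the red bars go from 34.2 to 65.1%.

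Relative to protein-coding genes, taken from outer gene coordinates with no exons, 264 of the 594 sites (44.4%, 40.5 to 48.5%) lay inside a gene. Within 1000 bp of a gene end there were 19 (3.20%, 2.06 to 4.94%), against 11.95% (9.23 to 15.3%) of solitary sites in control intervals and 2.77% of those in dox alone. Sites outside genes were a median of 47646 bp (35074 to 57117) from the nearest one, with 109 beyond 100000 bp, 16 beyond 500000 bp and the farthest at 1751568 bp. The 250 genes that hold a site had a median length of 140992 bp (114061 to 183076), against 17149 bp for all protein-coding genes. A gene drawn in proportion to its bases has a median length of 138259 bp, and the host genes were near that.

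Nearest genes carried H3K27ac at their ends near the general share in control cells and somewhat above it in dox. Of 537 nearest genes, 51.8% (47.5 to 56.0%) had a control interval and 56.4% (52.2 to 60.6%) a dox interval within 1000 bp of an end, against 50.1% and 50.8% of all protein-coding genes. In dox alone 46 were marked (8.57%, 6.48 to 11.2%; all genes, 3.17%), and in control alone 21 (3.91%, 2.57 to 5.90%; all genes, 2.47%). Genes nearest to flanked sites were marked at 57.2% in control (50.7 to 63.4%) and 64.2% in dox (57.8 to 70.1%). Genes nearest to sites in bare chromatin were marked at 39.8% (31.3 to 49.0%) and 38.1% (29.6 to 47.3%). Solitary sites in dox alone had nearest genes marked at 60.7% and 69.6%. These sets were defined by their distance to the same intervals. A gene end close to a site in bare chromatin cannot be marked, and a flank can itself mark a gene end. The order of the sets is therefore in part fixed by how they were chosen. Expression was not measured in these files, and the nearest gene need not be the one a site acts on.

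Few genes of the Hedgehog pathway or of cardiac development had one of these sites close by, and few genes of any kind did. Of all 21896 protein-coding genes, 3.58% had one of the 594 sites within 50000 bp. Among 50 Hedgehog pathway and target genes there were 3, against 7 with a solitary site in dox alone (all genes, 5.38%), 5 with one in a control interval (3.6%) and 11 with a clustered site (1.81%). Cdon, a Hedgehog co-receptor, held the site chr9:35465120-35465220, with a score of 33.0 and a control interval of 10.9 fold 1649 bp away. Hhat, which attaches palmitate to Hedgehog ligands, held chr1:192599277-192599377, with a score of 16.1 and its nearest interval, a control one of 4.96 fold, 4382 bp away. Neither of these sites was flanked.

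Other sites had a Hedgehog-related gene as their nearest gene at a greater distance. The site chr7:145010853-145010953, 71021 bp from the cyclin gene Ccnd1, had a score of 17.0 and dox flanks of 3.63 and 4.59 fold. The site chr13:60085122-60085222, 89182 bp from the co-receptor gene Gas1, had a score of 24.6, a dox interval of 4.75 fold 85 bp to the left and a control interval of 2.99 fold at 121 bp. Osr1, a transcription factor gene of lateral mesoderm and second heart field, was nearest to chr12:9457517-9457617 and chr12:9847561-9847661, at 116824 and 266060 bp, with scores of 23.6 and 13.4. The more distant of these had dox flanks of 3.001 and 3.67 fold. A second site with Cdon as its nearest gene, chr9:35364171-35364271, was 57256 bp away with a score of 8.14. Its nearest control interval was at 1758 bp (3.13 fold) and its nearest dox interval at 2436 bp (3.18 fold). Where dox intervals stood within 1000 bp of these sites, their fold enrichment was between 3.001 and 4.75, near the median of 4.11 for all dox intervals.

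Of 30 cardiac transcription factor genes, 2 had a site within 50000 bp. The site chr17:26852087-26852187, 7098 bp from Nkx2-5, the homeobox gene of early cardiac progenitors, had a score of 34.0, with the nearest control interval at 1601 bp (2.91 fold) and the nearest dox interval at 1761 bp (2.81 fold). Nkx2-5 had no interval within 1000 bp of its ends in either list. The site chr13:72640802-72640902, 6605 bp from the Iroquois gene Irx2, had a score of 51.4 and dox flanks of 2.25 and 4.50 fold, with the nearest control interval 11273 bp away. Hand2, a basic helix-loop-helix gene of the heart fields, was nearest to chr8:56983310-56983410, 337572 bp away, which scored 27.7 and had dox flanks of 6.70 and 4.00 fold. Hey2, a Notch target in ventricular muscle, was nearest to chr10:30952220-30952320, in bare chromatin 109436 bp away, with a score of 26.7. A control interval of 21.1 fold lay 26566 bp from that site and a dox interval of 16.4 fold 27018 bp from it. Within 50000 bp on either side, 5.885% of bases were in control intervals and 3.41% in dox intervals.

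The remaining lists gave similar small counts. Of 40 sarcomere and calcium handling genes 2 had a site within 50000 bp. Cacna1c, the cardiac L-type calcium channel gene, held chr6:118705260-118705360, with a score of 26.7 and dox flanks of 3.02 and 3.74 fold. Slc8a1, the sodium-calcium exchanger gene, had chr17:81750766-81750866 at 12378 bp, with a score of 13.4 and the nearest interval at 8479 bp. Of 33 mesoderm and progenitor genes there were 3. Among them Aldh1a2, which makes retinoic acid, held chr9:71270538-71270638, with a score of 59.6 and a dox interval of 3.15 fold at 157 bp. Of 30 neural genes there were also 3, including Robo2, an axon guidance receptor gene, which held chr16:74034622-74034722 with a score of 30.7 in bare chromatin, 58604 bp from the nearest interval. Eya1, a progenitor gene of pharyngeal mesoderm, was nearest to a site in bare chromatin 177727 bp away with a score of 10.8. That site's nearest interval was 14075 bp away. Within 50000 bp of it on either side, 4.41% of bases were in control intervals and 6.98% in dox intervals. Sox2, a neural and pluripotency factor gene, was nearest to one 461734 bp away with a score of 20.8 and a dox interval of 3.67 fold at 472 bp. With counts this small, no list can be set apart from the 3.58% of all genes.

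The labelled cell type was checked on H3K27ac within 1000 bp of marker genes. Of 12 cardiac progenitor markers 9 were marked in each list, with Nkx2-5 and Tbx5 marked in neither, Kdr in dox alone and Myl7 in control alone. Of all protein-coding genes, 50.1% in control and 50.8% in dox had an interval within 1000 bp of a gene end. That criterion is narrower than the one used for markers, and the counts were not tested against it. The median fold enrichment was 17.3 over the 9 marked in control and 10.8 over the 9 marked in dox, which are not the same 9 genes. At Tnnt2, cardiac troponin T, the values were 10.4 and 3.74. Of 5 pluripotency markers 2 were marked in each list (Nanog and Esrrb), and of 3 neural markers none was. Of 5 endothelial and blood markers 1 was marked in control and 3 in dox, and of 4 endoderm markers 0 and 2 (Foxa2 and Ttr). The part of other cell types in the sites above was not tested. In bulk chromatin a mark in few cells and a weak mark in many cannot be told apart.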

How the data were processed

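GLI1 pulldown and H3K27ac ChIP-seq lists were used, each pooled over 2 libraries of 1 group. The submitters' processing notes name Bowtie2 2.3.2, SAMtools 1.5, MACS2 2.1.1 and mm10, with roles and settings not given in the sources used here. The GLI1 list holds 1 score per site as deposited by the authors. No header names that score, and it was taken as −log10 q from its values and the MACS2 named in the notes. The H3K27ac lists hold, from the authors, a fold enrichment (ratio), −log10 p and −log10 q per summit, and rows of 1 interval were joined. Peak numbers skip in 335 stretches of the control and 359 of the dox list, where intervals may be missing. Of the sites, 16 lie in such stretches and are not named, and 1420 genes with an end there were left out of gene-end marks. Pileups were recovered as whole numbers within 0.01 for 99.96% of control and 99.92% of dox summits, by a script tested on simulated data. Read totals per library were not used. Gaps, shares (Wilson) and medians (order statistics), each with 95% intervals, were computed in Python 3.11.15, and genes came from a RefSeq table of GRCm38.p6. Sites named singly are the 12 of highest score, the 6 farthest from any interval, the 6 strongest flanked sites and those nearest to a gene of a fixed list. Sites and gene lists were chosen with earlier results of these data known. Alternatives changed the solitary distance, the overlap, the interval threshold, the near limit, the gene set and the gene window.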

Additional observations from a re-analysis of the deposited data

How the results depend on the processing

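Of 63 recomputed values 47 stayed within 1.5 times (counts) or within the counting interval (shares and medians), and 16 moved. Some moves changed the reading. With intervals of −log10 q of at least 10, most sites no longer lay within 1000 bp of one. The share was 29.1%, with 53.4% beyond 10000 bp and 8.38% flanked on both sides. The shares of bases were not recomputed for these intervals. Of the regions beside them 88.9% were in the dox list alone. The shared ones had a log2 ratio of 0.25 (-0.19 to 0.61), so its sign was open. With windows widened by 500 bp the number was 204, the median score 23.4, and these shares 6.37%, 58.8%, 0% and 53.8%, since the widening removes sites near intervals. Requiring 51 bp of overlap gave 74.5%, 16.04% and 35.4% for the first 3 shares. Against all annotated genes 52.9% lay in a gene, and 6 Hedgehog genes had a site within 100000 bp. A solitary distance of 5000 or 20000 bp gave 608 or 571 sites, and leaving out skipped stretches 578. No paired analysis was possible because each list pools both replicates, and for the same reason no replicate could be left out. The recovered pileup of all dox intervals had a median of 20 fragments and a lowest value of 11. Such low counts limit which weak intervals were called.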
